A study of Mus musculus with 11 samples.

Results

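The 10 genes described here encode the chains of the main fibrillar collagens (Col1a1, Col1a2, Col3a1, Col5a1, Col5a2), of the basement membrane collagen type IV (Col4a1, Col4a2) and of the beaded filament collagen type VI (Col6a1, Col6a2, Col6a3). They were taken by name from the 31053 genes of the deposited matrices, where each occurred once. The question was when after acetaminophen (APAP) each of them first exceeded its level in uninjured liver, and where in the tissue it did so. Visium spatial transcriptomics had been performed on 11 frozen sections of mouse liver, in which each spot captures the RNA of a small region that can hold several cells. Uninjured liver gave 3 of them (0 h, sections 2, 3 and 4). After APAP, 2 came from 24 h and 2 from 36 h, each pair lettered A and B, and 4 came from 48 h, lettered A to D. The study's methods describe C57BL/6JCrl mice aged 8 to 12 weeks, male unless stated, that were fasted and then injected intraperitoneally with APAP, and no transgene or virus is named for these sections. The methods also give 1 mouse liver per time point, while the labels list several sections and name no animal, slide or run. Sections were therefore the replicates, p-values cover only the spread between sections, and neither the mouse nor a processing batch can be told apart from the time point.

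Collagens are trimers of alpha chains wound into a triple helix, and the chains of a heterotrimer have to be made together. Type I (Col1a1 with Col1a2) and type III (Col3a1) form the banded fibrils of scar, and type V (Col5a1 with Col5a2) is a minor partner in those fibrils that governs how they start and how thick they grow. Type IV (Col4a1 with Col4a2) forms the sheet-like network of basement membranes, and type VI (Col6a1, Col6a2, Col6a3) forms fine beaded filaments between cells and the surrounding matrix. In liver the fibrillar chains are made mainly by stellate cells and portal fibroblasts once these are activated, while type IV is also made by endothelium. APAP kills hepatocytes around the central veins, and matrix is laid down there while the lobule regenerates.

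The type IV pair sits head to head on chromosome 8 (GRCm38), with Col4a1 on the minus strand at chr8:11198423-11312826 and Col4a2 on the plus strand at chr8:11312805-11449287, so that both start within the 22 bases at chr8:11312805-11312826 that the annotation gives to both genes. That stretch, shown because it is the only sequence shared by the start of a pair of members, reads on the plus strand:

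Col4a1 and Col4a2 shared start: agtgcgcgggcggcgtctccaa

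The other members on a common chromosome lie further apart. Col6a1 and Col6a2 follow each other on the minus strand of chromosome 10 with 85.2 kb between them, and Col3a1 and Col5a2 point towards each other on chromosome 1 with 24.6 kb between them. RefSeq promoter windows (GRCm38.p6) matched 8 of the 10 members, with 9 windows because Col6a2 has a pair of annotated starts, and no window was matched for Col1a1 or Col5a2. In the 250 bases before each start, both strands were searched for the CCAAT box (CCAAT), held by 33.8% of all 32851 windows of this length, the GC box (GGGCGG), held by 32.7%, the TATA box (TATAAA), held by 12.4%, and the SMAD element (CAGACA), held by 17.1%. The windows of both type IV genes held 1 CCAAT box each, and so did that of Col1a2. GC content ranged from 35.2% for Col3a1 to 76.4% for Col5a1, against a median of 52.4% over all windows. The 4 windows without any annotated exon are shown so that the differences in composition can be seen, 5′ to 3′ on the gene's strand, with motif matches in capitals.

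Col3a1 (chr1:45311288-45311537, plus strand; 1 TATA box and 2 SMAD elements): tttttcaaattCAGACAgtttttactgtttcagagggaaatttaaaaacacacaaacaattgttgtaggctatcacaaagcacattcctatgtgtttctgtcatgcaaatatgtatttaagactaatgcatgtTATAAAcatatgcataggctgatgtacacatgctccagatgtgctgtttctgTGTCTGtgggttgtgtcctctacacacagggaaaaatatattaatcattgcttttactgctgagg

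Col5a1 (chr2:27886175-27886424, plus strand; 2 GC boxes and 1 SMAD element): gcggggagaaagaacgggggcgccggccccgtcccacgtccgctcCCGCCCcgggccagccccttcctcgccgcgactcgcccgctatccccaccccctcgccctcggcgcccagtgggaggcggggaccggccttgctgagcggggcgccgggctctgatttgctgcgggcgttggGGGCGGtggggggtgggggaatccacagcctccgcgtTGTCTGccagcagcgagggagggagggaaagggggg

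Col6a2, upstream start (chr10:76623631-76623880, minus strand; 1 GC box): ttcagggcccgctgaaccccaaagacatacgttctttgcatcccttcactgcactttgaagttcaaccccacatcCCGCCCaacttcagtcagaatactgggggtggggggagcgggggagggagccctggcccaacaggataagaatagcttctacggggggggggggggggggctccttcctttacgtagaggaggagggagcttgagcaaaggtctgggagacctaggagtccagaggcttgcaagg

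Col6a3 (chr1:90843972-90844221, minus strand; no match to the 4 motifs): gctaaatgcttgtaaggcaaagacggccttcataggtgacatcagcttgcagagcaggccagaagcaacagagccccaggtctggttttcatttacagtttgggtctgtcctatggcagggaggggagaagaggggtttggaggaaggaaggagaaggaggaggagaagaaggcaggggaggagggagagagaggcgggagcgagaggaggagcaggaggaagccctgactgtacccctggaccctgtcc

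A match is only a match of letters, and no factor was measured at these sites. Several annotated genes without a described product overlap members on the same strand (at Col1a2, Col3a1, Col4a1, Col5a2 and Col6a3) or on the opposite strand (at Col4a1, Col4a2 and Col5a1), and a UMI within such an overlap may not have been counted for the member.

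Sections held between 1490 and 3466 spots that passed the study's filter of at least 800 genes and at most 20% mitochondrial UMIs, and between 31292663 and 67045372 UMIs (unique transcript molecules). Levels are given on the CPM scale, the UMIs of a gene relative to all UMIs of its section, after scaling by the trimmed mean of M values (TMM). Since 3′ ends were counted and capture differs between genes, levels are compared between sections for the same gene and never between genes. Fold changes come from edgeR's quasi-likelihood test (two-sided) fitted to all 11 sections and 14821 genes, and a gene was called at an adjusted p under 0.05. Total-count scaling in place of TMM raised the median log2 change of all genes by 0.33 at 24 h, 0.44 at 36 h and 0.53 at 48 h against 0 h, so that changes stand relative to the typical gene. In a spot or a section, more cells that make a transcript and more transcript per cell cannot be told apart.

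The 2 sections at 36 h stood apart from each other. In every member the higher section, 36 h B, exceeded 36 h A by between 2.06 and 4.31 times, against 1.19 to 1.47 times between the highest and lowest section at 0 h, 1.03 to 1.66 times at 24 h and 1.63 to 3.09 times at 48 h. Summed CPM of the 4 mesothelial markers was also highest in 36 h B (20.9) and 48 h C (13.6), against 0.83 to 3.94 in the other 9 sections, and its part in the collagen levels was not tested. The median mitochondrial share per spot was 4.56% in 36 h B and 1.69% in 36 h A. It was 1.75% to 2.68% at 24 h and 48 h and 4.31% to 6.38% at 0 h, and its part was not tested either. The counts of members called at 36 h are therefore also given without 36 h B.

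Both type IV chains were raised by 24 h, by as much as at 48 h in the fitted values. Col4a1 was at 32.2, 34.1 and 42.9 CPM in the 0 h sections and at 124 and 130 CPM at 24 h. It was at 58.7 and 142 CPM at 36 h, then at 104.4, 98.0, 160 and 142 CPM at 48 h. Every section after APAP was above every 0 h section, and 36 h A was the lowest of them. The log2 fold change was 1.80 ± 0.32 (SE) at 24 h (adjusted p = 0.00169, edgeR), 1.46 ± 0.32 at 36 h and 1.79 ± 0.29 at 48 h, so that the change at 24 h was 100% of that at 48 h. Between 24 h and 48 h the difference was -0.01 ± 0.31 on the log2 scale (adjusted p = 0.987, edgeR).

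Col4a2, whose chain joins that of Col4a1 in the same trimer, followed the same course. Its levels were 22.5, 25.2 and 29.3 CPM at 0 h, 90.7 and 95.8 CPM at 24 h, 45.4 and 93.7 CPM at 36 h, then 72.7, 64.98, 114 and 90.5 CPM at 48 h. Again no injured section overlapped the 0 h sections. The log2 fold changes were 1.86 ± 0.29, 1.44 ± 0.29 and 1.74 ± 0.26 at 24 h, 36 h and 48 h, and the adjusted p at 24 h was 0.000802 (edgeR). Both chains were called at 24 h under each of the 16 alternative settings tried.

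The type I chains were first called at 36 h and had larger changes at 48 h. Col1a1, the chain present in excess in type I trimers, was at 3.21, 2.19 and 2.54 CPM at 0 h, against 6.88 and 5.20 CPM at 24 h. It reached 20.5 and 80.4 CPM at 36 h, and 94.3, 130, 291 and 261 CPM at 48 h. The 4 time points did not overlap, and at 48 h sections C and D were above A and B. The log2 fold change was 1.196 ± 0.62 at 24 h, where it missed the threshold (adjusted p = 0.148, edgeR), 4.25 ± 0.63 at 36 h (adjusted p = 0.00174) and 6.20 ± 0.64 at 48 h (adjusted p = 0.000101), a 73.3-fold rise. The 24 h value was called in 1 of 16 alternative settings, the one that fitted only the 24 h and 0 h sections, and over all 16 its adjusted p (edgeR or DESeq2) ranged from 0.00323 to 0.407.

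Col1a2, the second chain of type I, was at 11.1, 11.4 and 13.9 CPM at 0 h, against 13.7 and 9.16 CPM at 24 h. Its levels were 36.4 and 115 CPM at 36 h, then 150, 183, 375 and 368 CPM at 48 h. At 24 h, section A lay within the range of the 0 h sections and B below it, and all later sections lay above them. The log2 fold changes were -0.09 ± 0.51, 2.64 ± 0.50 and 4.47 ± 0.50 at 24 h, 36 h and 48 h, the last a 22.2-fold rise (adjusted p = 0.000136, edgeR).

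Col3a1, the single chain of type III, was at 21.2, 23.6 and 26.7 CPM at 0 h, at 21.4 and 12.9 CPM at 24 h, at 45.6 and 113 CPM at 36 h, then at 190, 267, 450 and 476 CPM at 48 h. Its 24 h sections were not above the 0 h sections, and 24 h B was below all of them. The log2 fold changes were -0.47 ± 0.45, 1.74 ± 0.44 and 3.86 ± 0.43, and the last was a 14.5-fold rise (adjusted p = 0.000126, edgeR). Col3a1 was also the member called between 36 h and 48 h, with a log2 change of 2.12 ± 0.47 (adjusted p = 0.0439), and that call was lost in 13 of its 18 alternatives (adjusted p from 1.17e-05 to 0.502).

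The type V chains differed from each other at 24 h in their calls, although that difference was not itself tested. Col5a2 was at 2.16, 2.01 and 2.94 CPM at 0 h, against 6.39 and 6.03 CPM at 24 h, so that both 24 h sections were above all 0 h sections. It then reached 6.92 and 23.2 CPM at 36 h, then 27.03, 31.3, 59.4 and 51.1 CPM at 48 h. Its log2 fold change at 24 h was 1.40 ± 0.50 (adjusted p = 0.0447, edgeR), a call that was lost in 8 of 16 alternatives, among them each one that left out a 0 h or a 24 h section (adjusted p from 0.00107 to 0.153). At 48 h the rise was 18.0-fold.

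Col5a1, the other type V chain, was at 6.76, 6.57 and 7.94 CPM at 0 h, against 8.80 and 9.35 CPM at 24 h, just above the 0 h range. It stood at 13.3 and 31.3 CPM at 36 h, then at 35.5, 36.5, 67.0 and 60.1 CPM at 48 h. The log2 fold change was 0.36 ± 0.37 at 24 h, not called, 1.66 ± 0.36 at 36 h (adjusted p = 0.00828, edgeR) and 2.82 ± 0.33 at 48 h, a 7.04-fold rise that was smaller than that of any other fibrillar member.

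Of the type VI chains, Col6a3 was first called at 36 h and Col6a1 and Col6a2 at 48 h. Col6a1 was at 4.49, 4.31 and 5.65 CPM at 0 h, against 1.55 and 1.4996 CPM at 24 h. It was at 3.97 and 17.1 CPM at 36 h, then at 19.99, 21.2, 46.3 and 31.5 CPM at 48 h. The 24 h sections lay below all 0 h sections, the 36 h sections lay on both sides of them, and the 48 h sections lay above. The log2 fold change at 24 h was -1.65 ± 0.62, which missed the threshold (adjusted p = 0.0558, edgeR). It passed (edgeR or DESeq2) in 5 of 16 alternatives, with an adjusted p of 0.000491 to 0.194 over all 16. At 36 h the change was 1.13 ± 0.52, not called, and at 48 h it was 2.63 ± 0.47 (adjusted p = 0.00168).

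Col6a2, which is joined with Col6a1 in the same trimer, had 3.50, 3.70 and 4.18 CPM at 0 h, 2.04 and 1.75 CPM at 24 h, 4.81 and 14.9 CPM at 36 h, then 19.2, 16.5, 47.5 and 28.1 CPM at 48 h. Both 24 h sections were below the 0 h sections, although the log2 change of -0.99 ± 0.57 was not called (adjusted p = 0.193, edgeR). At 36 h the change of 1.38 ± 0.50 was not called, and at 48 h it was 2.88 ± 0.46.

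Col6a3, the large chain of type VI, was at 4.78, 5.65 and 6.61 CPM at 0 h, against 8.24 and 7.21 CPM at 24 h, above the 0 h sections rather than below. It was at 14.7 and 34.2 CPM at 36 h, then at 47.4, 65.7, 112 and 81.9 CPM at 48 h. Its log2 fold changes were 0.45 ± 0.39 (not called), 2.11 ± 0.38 (adjusted p = 0.00387, edgeR) and 3.76 ± 0.37.

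**Figure D1:**
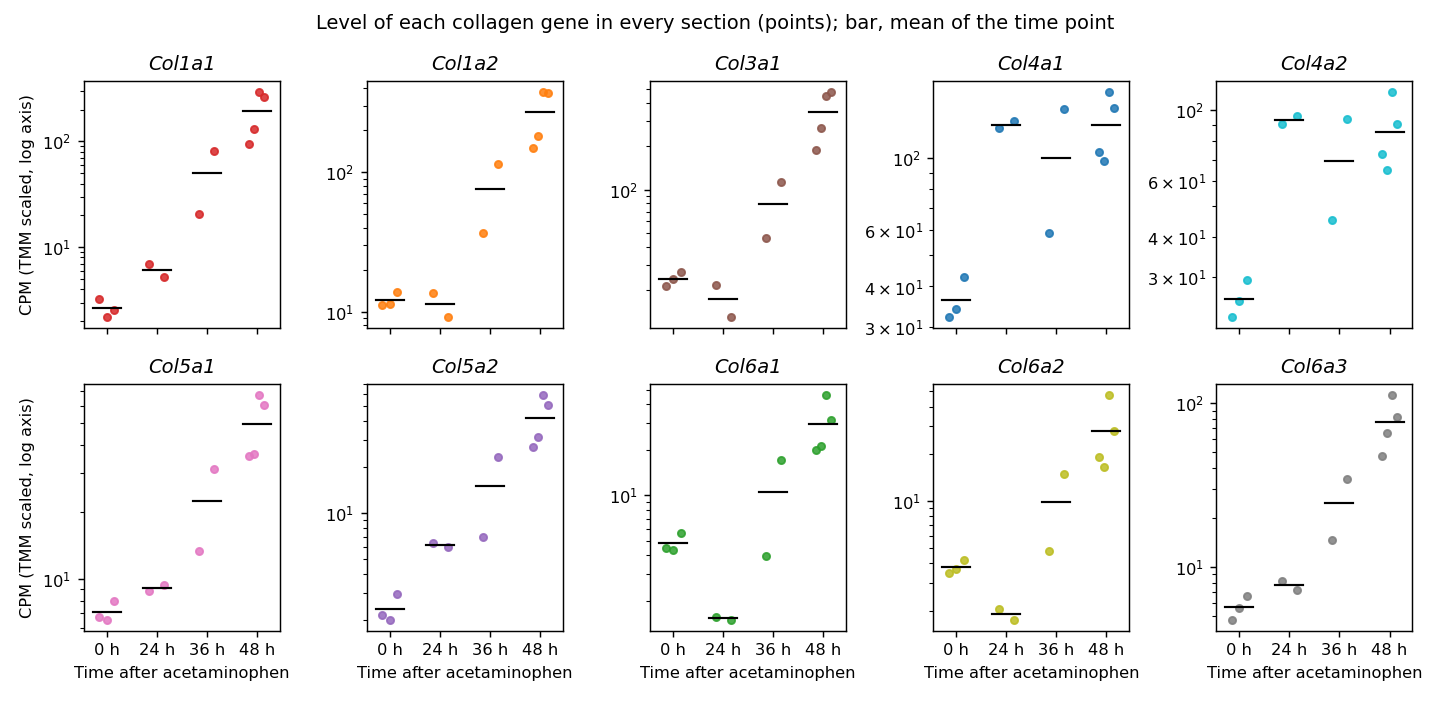
Level of each collagen gene in CPM after TMM scaling (log axis, 1 panel per gene with its own range) in every section at 0 h, 24 h, 36 h and 48 h after acetaminophen; points are sections and bars are means of the time point. Col4a1 lay at 124 and 130 at 24 h and at 98.0 to 160 at 48 h, whereas Col1a1 went from 2.19 to 3.21 at 0 h to 94.3 to 291 at 48 h and Col6a1 lay below its 0 h sections at 24 h.

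With onset taken as the first time at which a member was called higher than at 0 h, 3 members started at 24 h (Col4a1, Col4a2, Col5a2), 5 at 36 h (Col1a1, Col1a2, Col3a1, Col5a1, Col6a3) and 2 at 48 h (Col6a1, Col6a2). Such an onset rests on a threshold, and a difference in onset between members was not itself tested. At 24 h, 3 of 10 members were called higher, against 23.1% of all genes tested, and none was called lower, against 18.6% (edgeR, with 1 member, Col6a1, at a lower level at an unadjusted p under 0.05, and DESeq2 called it lower). At 36 h, 8 of 10 were called higher against 16.8% of all genes, and at 48 h all 10 were, against 23.3%. The median log2 change of the 5 fibrillar members was 0.36, 2.64 and 4.17 at 24 h, 36 h and 48 h, that of the 2 type IV members was 1.83, 1.45 and 1.77, and that of the 3 type VI members was -0.99, 1.38 and 2.88. The median of all genes lay between 0.01 and 0.05.

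The count at 36 h rested on section B. Without 36 h B, 3 members were called at 36 h, with log2 changes of 2.95 (Col1a1), 1.56 (Col5a2) and 1.37 (Col6a3). Those not called were then at 1.59 (Col1a2), 0.93 (Col3a1), 0.69 (Col4a1), 0.82 (Col4a2), 0.91 (Col5a1), -0.27 (Col6a1) and 0.35 (Col6a2). Without 36 h A, all 10 were called and Col1a1 stood at 4.92. The onsets of Col4a1, Col4a2 and Col6a3 were the same under all 16 alternatives, those of Col1a1, Col1a2 and Col5a1 under 15, that of Col6a1 under 14, that of Col3a1 under 13, that of Col6a2 under 12 and that of Col5a2 under 8. At 48 h all 10 members were called under every alternative, including each section left out in turn. An alternative can also change how many of all genes are called, and those shares are not given beside these counts.

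**Figure D2:**
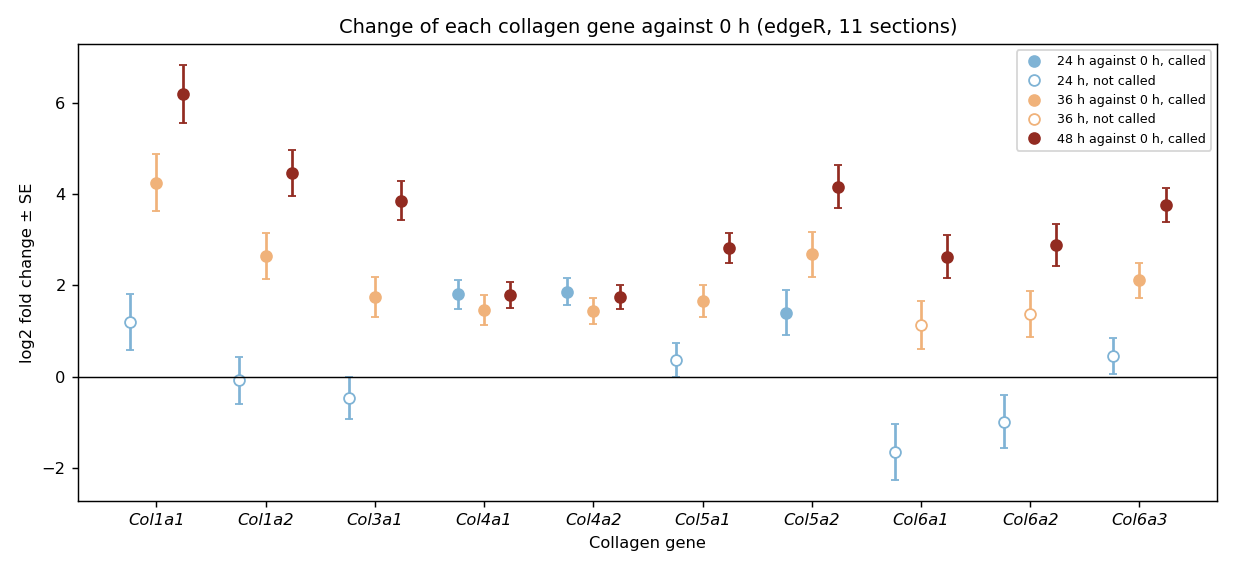
Log2 fold change against 0 h with its standard error (edgeR, 11 sections) for each collagen gene at 24 h, 36 h and 48 h; filled points passed an adjusted p of 0.05 and open points did not. The 3 changes of Col4a1 lie between 1.46 and 1.80, whereas those of Col1a1 climb from 1.196 through 4.25 to 6.20 and those of Col6a1 from -1.65 through 1.13 to 2.63.

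The injured time points were also compared with each other. From 24 h to 36 h, 6 of 10 members were called higher, against 7.04% of all genes: Col1a1 by 3.06 ± 0.69, Col1a2 by 2.72 ± 0.59, Col3a1 by 2.21 ± 0.51, Col6a1 by 2.79 ± 0.66, Col6a2 by 2.36 ± 0.61 and Col6a3 by 1.66 ± 0.43 on the log2 scale. Col4a1 (-0.34 ± 0.36), Col4a2 (-0.42 ± 0.32), Col5a1 (1.30 ± 0.40) and Col5a2 (1.28 ± 0.52) were not called. None of the 10 was called in this step when 24 h A, 24 h B or 36 h B was left out, and 8 were called without 36 h A. From 36 h to 48 h, 1 of 10 was called higher (Col3a1, above), against 1.62% of all genes, with log2 changes of 1.16 to 2.12 in the 8 fibrillar and type VI members and of 0.33 and 0.30 in Col4a1 and Col4a2. Without 36 h B, 9 members were called in this step. From 24 h to 48 h, 8 of 10 were called higher, against 16.2% of all genes, all but the type IV pair, with log2 changes from 2.46 ± 0.38 for Col5a1 to 4.999 ± 0.72 for Col1a1.

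The difference in course was tested on ratios within a section, which no scaling between sections can move. The log2 ratio of Col1a1 to Col4a1 was -4.17 and -4.64 at 24 h, -1.52 and -0.82 at 36 h, and -0.15, 0.40, 0.87 and 0.87 at 48 h, after -3.32, -3.96 and -4.08 at 0 h. The 48 h sections did not overlap the 4 sections at 24 h and 36 h, and their mean was higher by 3.29 (exact two-sided permutation test, p = 0.0286, the smallest p that 70 arrangements allow). The same contrast was 3.02 for Col3a1 and 2.79 for Col6a1, both over Col4a1, without overlap and with the same p. Over the 6 ratio contrasts computed, the adjusted value was 0.0571 for each of these 3, which misses 0.05. All injured sections against 0 h gave 2.64 for Col1a1 (p = 0.121), 0.48 for Col3a1 (p = 0.667) and -0.61 for Col6a1 (p = 0.764) by the exact permutation test over 165 arrangements, with the 24 h sections below and the 48 h sections above the 0 h sections in each ratio. The ratio of Col3a1 to Col4a1 went from between -0.68 and -0.53 at 0 h to -2.53 and -3.33 at 24 h, and that of Col6a1 from between -2.98 and -2.84 to -6.32 and -6.44.

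Other genes of the collagen pathway were counted in the same fit, in which 23.1%, 16.8% and 23.3% of all genes were called higher at 24 h, 36 h and 48 h. At 24 h 18.6% of all genes were called lower, and counts called lower at 36 h and 48 h stand without that share. Of 20 genes for folding and hydroxylation of collagen chains, 6, 8 and 12 were called higher and 1, 0 and 0 lower at 24 h, 36 h and 48 h (edgeR), with a median log2 change of 0.65 at 48 h. Serpinh1, the collagen chaperone HSP47, rose by 1.34 ± 0.38, 1.70 ± 0.38 and 2.49 ± 0.35. Fkbp10, a prolyl isomerase of the same compartment, rose by 1.74 ± 0.36, 2.81 ± 0.36 and 3.35 ± 0.33. Plod2, which hydroxylates telopeptide lysines for cross-links, was at -0.14 ± 0.62 at 24 h, not called, and rose by 1.86 ± 0.53 and 2.97 ± 0.46 later, and P4ha3, a prolyl hydroxylase subunit, was called at 48 h (3.18 ± 0.74).

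Other enzymes trim and cross-link the chains once they are secreted. Of 5 procollagen cleavage genes tested, 1, 2 and 4 were called higher at the 3 times. Adamts2, which removes the amino-terminal propeptide, rose by 1.201 ± 0.34 at 36 h and 2.11 ± 0.30 at 48 h, Adamts14 by 2.43 ± 0.42 and 1.94 ± 0.37, and the enhancer of carboxy-terminal cleavage Pcolce by 1.21 ± 0.25 at 48 h, with its relative Pcolce2 at 0.62 ± 0.21. Of the 5 lysyl oxidase genes, 2, 4 and 4 were called higher. Lox rose by 2.74 ± 0.88, 3.33 ± 0.85 and 5.67 ± 0.76 on the log2 scale, and Loxl2, which also acts on type IV collagen, by 1.93 ± 0.37, 2.41 ± 0.36 and 2.87 ± 0.33. Loxl1 and Loxl3 were called from 36 h and reached 2.88 ± 0.43 and 1.69 ± 0.24 at 48 h.

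The partners of fibrils and of basement membranes were mixed. Of 6 fibril-binding proteoglycan genes tested, 0, 0 and 3 were called higher and 3, 1 and 0 lower at 24 h, 36 h and 48 h. Lum, which spaces fibrils, had a log2 change of -1.33 ± 0.29 at 24 h and was 1.55 ± 0.24 higher at 48 h, and Fmod and Bgn were called higher at 48 h (1.76 ± 0.58 and 0.87 ± 0.26). Of 15 genes whose products bind type IV collagen or share its membrane, 2, 5 and 7 were higher and 3, 1 and 1 lower. Nid1, which links the laminin and type IV networks, rose by 1.32 ± 0.36, 1.58 ± 0.36 and 1.81 ± 0.32, so it was called at 24 h together with Col4a1 and Col4a2. Among laminin chains, Lamc1 was called from 36 h (1.03 ± 0.27), while Lama3 was lower at all 3 times (-2.16 ± 0.43, -1.33 ± 0.41 and -1.64 ± 0.32).

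Cells bind collagen through receptors and break it down with proteases. Of 9 collagen receptor genes tested, 2, 3 and 6 were called higher and none lower. The receptor kinase Ddr1 rose by 1.22 ± 0.38, 1.77 ± 0.38 and 2.27 ± 0.34, the integrin subunit Itga2 by 3.71 ± 1.10, 3.40 ± 1.12 and 2.98 ± 1.01, and the uptake receptor Mrc2 and the integrin subunit Itga11 were called at 48 h (2.69 ± 0.38 and 1.86 ± 0.54). Of 7 degrading enzymes, 3, 2 and 4 were higher and 1 was lower at 24 h. The collagenase Mmp13 ran opposite to the fibrillar chains, at 3.94 ± 0.34, 2.08 ± 0.35 and 1.08 ± 0.31, whereas the neutrophil collagenase Mmp8 stood at 4.24 ± 0.86, 5.18 ± 0.80 and 5.93 ± 0.71. Mmp9 was called at 24 h (1.89 ± 0.65) and 48 h (1.71 ± 0.57), and the lysosomal collagenase Ctsk at 48 h (1.63 ± 0.38).

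Collagen genes outside the 10 were mixed. Of 3 other fibrillar chains tested, none was called higher and Col27a1 was lower at 48 h (-1.21 ± 0.41). Col5a3, a further type V chain, stood at -0.38 ± 0.24, -0.24 ± 0.24 and -0.15 ± 0.20, not called. Of 4 other basement membrane chains, 3 were called lower at 24 h, and at 48 h Col4a5 was higher (0.96 ± 0.26) and Col18a1 lower (-0.70 ± 0.10). Neither of the 2 other beaded filament chains was called, with Col6a6 at 1.19 ± 0.80 and Col6a5 at 1.64 ± 0.62 at 48 h. Of 9 fibril-associated, network and transmembrane chains, 0, 1 and 3 were higher and 1 was lower at 24 h. Col12a1, which coats fibrils, rose by 1.48 ± 0.35 at 36 h and 2.20 ± 0.31 at 48 h, and Col8a1 and Col16a1 rose by 1.42 ± 0.49 and 1.38 ± 0.25 at 48 h.

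Many of the calls of these genes at 36 h also rested on section B. Without 36 h B, Serpinh1 (1.08), Plod2 (0.82), Adamts2 (0.56), Lox (0.45), Loxl1 (0.37), Loxl3 (0.93), Nid1 (0.60), Lamc1 (0.40), Lama3 (-0.94), Ddr1 (1.35), Itga2 (0.40) and Col12a1 (0.70) were no longer called at that time. Fkbp10 (2.13), Adamts14 (1.62), Loxl2 (1.73), Mmp13 (2.16) and Mmp8 (4.15) still were.

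Markers of the cells that make collagen, and of others in the tissue, moved at the same times. Here too, counts called lower at 36 h and 48 h stand without the share of all genes. Of 6 mesenchymal markers, 4, 4 and 5 were called higher at 24 h, 36 h and 48 h and 1, 1 and 0 lower. Their summed level was 225 to 259 CPM at 0 h, 213 to 241 at 24 h, 142 to 310 at 36 h and 285 to 427 at 48 h. The contractile genes Acta2 and Tagln were raised from 24 h (4.32 ± 0.45 and 2.01 ± 0.41), at a time when Col1a1 and Col1a2 were not called. Of 6 quiescent stellate cell markers, 1, 0 and 1 were higher and 4, 4 and 2 lower, with a summed level of 379 to 485 CPM at 0 h, 156 to 183 at 24 h, 201 to 281 at 36 h and 241 to 311 at 48 h. Of 5 portal fibroblast markers tested, 3 were higher at 48 h (10.9 to 15.3 CPM at 0 h, 4.21 to 5.87 at 24 h, 11.6 to 23.1 at 36 h and 22.6 to 47.8 at 48 h).

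Of 4 smooth muscle markers, 2, 1 and 4 were higher at the 3 times, with a sum of 6.58 to 8.04 CPM at 0 h and 14.2 to 25.6 at 48 h, and Cnn1 was at or below 0.02 CPM in every 0 h section. All 4 neutrophil markers were higher at each time (3.15 to 8.85 CPM at 0 h and 40.8 to 138 at 24 h), and 1, 1 and 3 of 4 mononuclear phagocyte markers were (409 to 434 CPM at 0 h and 722 to 1327 at 48 h). No mesothelial marker was called higher or lower. Of 4 cholangiocyte markers, 1 was higher at each time and 1, 1 and 0 were lower, yet their summed level was 235 to 293 CPM at 0 h, 977 to 1141 at 24 h, 597 to 903 at 36 h and 325 to 1031 at 48 h. Cycling markers were higher for 0, 2 and 3 of 3 (2.05 to 3.05 CPM at 0 h and 26.7 to 80.2 at 48 h), and of 6 T and B cell markers 1 was lower at each time. Hepatocyte markers, which define the labelled tissue, were abundant throughout (109755 to 114754 CPM at 0 h and 72897 to 89360 at 48 h), with 4, 2 and 4 of 6 lower and 1 higher at each time. Of 7 endothelial markers none was higher and Kdr was lower at each time, with sums of 247 to 283 CPM at 0 h and 210 to 228 at 24 h, when type IV was raised. The part of any of these cells in the collagen levels was not tested.

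Across spots, the share that held a collagen UMI was described without a test. Each spot was thinned to 2000 UMIs so that spots of unequal depth could be compared. At 0 h, 0.344% to 0.568% of spots held a Col1a1 UMI, at 24 h 1.11% to 1.15%, at 36 h 4.11% to 12.7% and at 48 h 15.3% to 38.9%. Without thinning the Col1a1 shares were 3.48% to 6.66%, 8.50% to 11.3%, 23.8% to 58.8% and 57.0% to 90.5%. For Col4a1 the thinned shares were 5.47% to 6.79%, 22.1% to 22.6%, 11.2% to 24.8% and 19.1% to 28.8%, so that the range at 24 h lay within that at 48 h. Col3a1 was found in 28.3% to 55.8% of spots at 48 h, against 3.77% to 4.39% at 0 h. The type VI chains Col6a1 and Col6a2 were found in 0.723% to 1.16% and 0.774% to 0.859% of spots at 0 h, in 0.364% to 0.397% and 0.357% to 0.425% at 24 h, and in 4.23% to 9.90% and 3.55% to 11.5% at 48 h.

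Neighbouring spots were compared without thinning, on the log of UMIs relative to all UMIs of the spot. The correlation of neighbouring spots, given as a description over pairs that share a section, was 0.02 to 0.06 for Col1a1 at 0 h and 0.25 to 0.46 at 48 h. For Col4a1 it was 0.00 to 0.05 at 0 h, 0.16 to 0.20 at 24 h, 0.11 to 0.19 at 36 h and 0.20 to 0.29 at 48 h. Within spots, Col1a1 and Col1a2 correlated at 0.06 to 0.12 at 0 h and at 0.64 to 0.84 at 48 h, and Col4a1 and Col4a2 at 0.05 to 0.08 and at 0.39 to 0.58. Col1a1 and Col4a1 correlated at -0.01 to 0.06 at 0 h, 0.05 to 0.11 at 24 h, 0.22 to 0.34 at 36 h and 0.51 to 0.73 at 48 h. Coefficients of sparse counts depend on the level and the depth as well, so they are not compared between members.

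**Figure D3:**
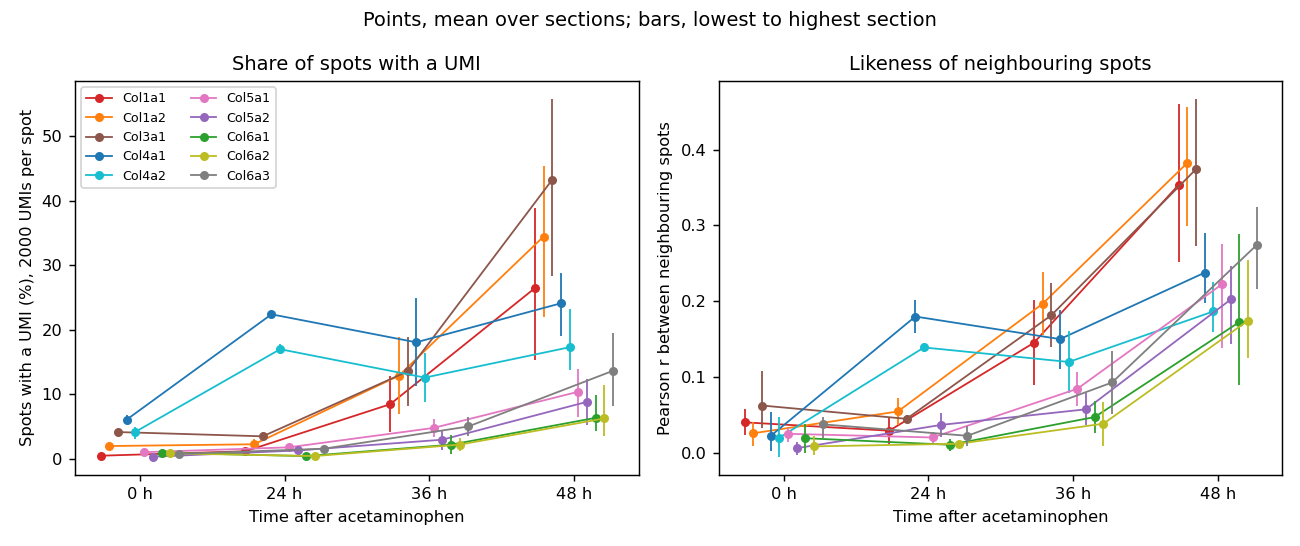
Left, share of spots with at least 1 UMI of each collagen gene after thinning to 2000 UMIs per spot; right, Pearson r between neighbouring spots without thinning; points are means over sections at 0 h, 24 h, 36 h and 48 h (equally spaced) and bars run from the lowest to the highest section. Col4a1 is in 22.1% to 22.6% of spots at 24 h and 19.1% to 28.8% at 48 h, whereas Col1a1 goes from 1.11% to 1.15% to 15.3% to 38.9%.

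**Figure D4:**
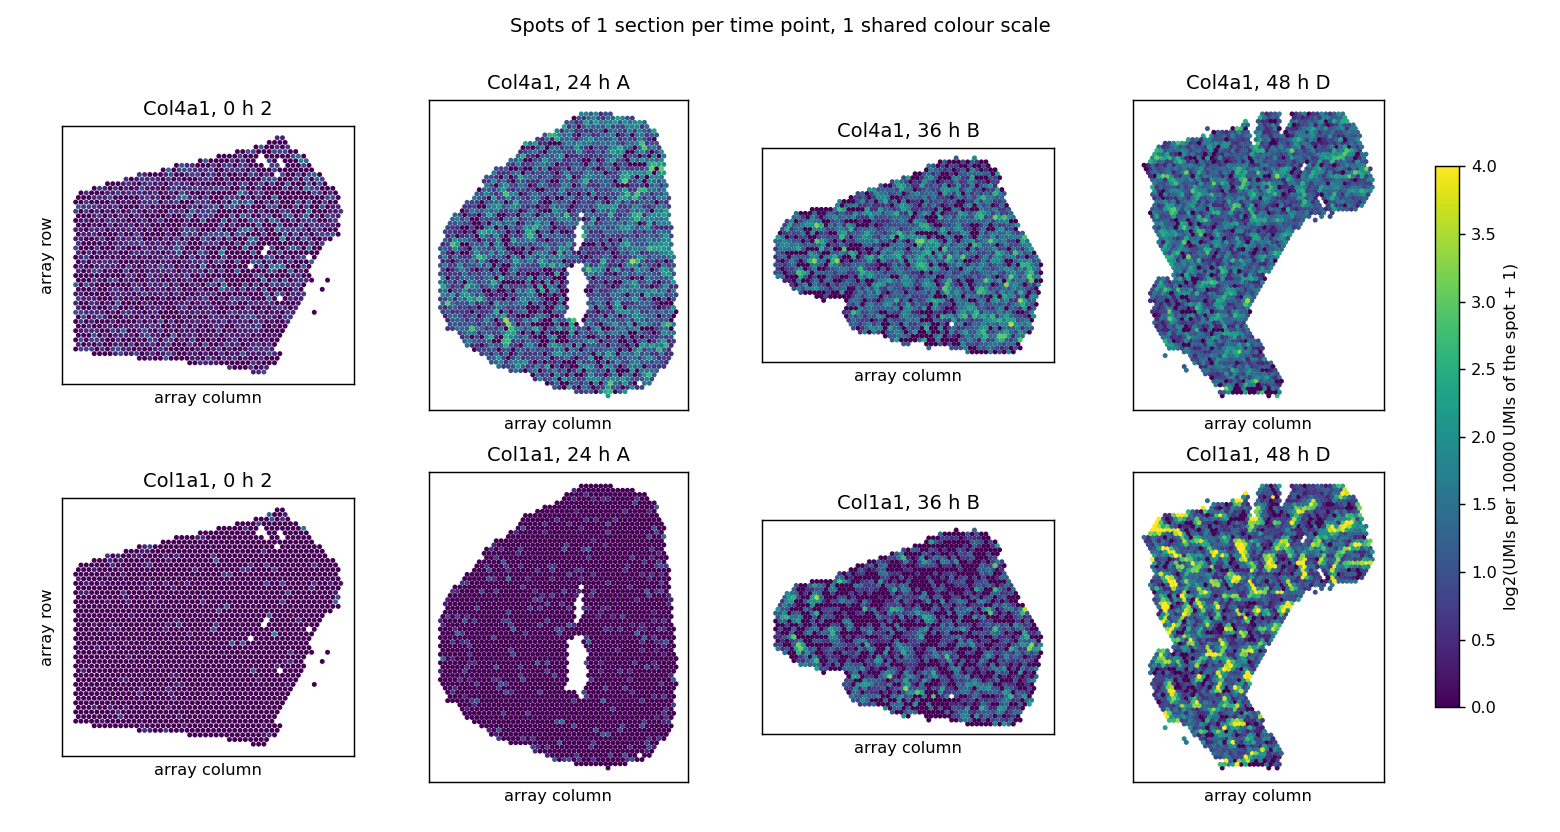
Maps of Col4a1 (top) and Col1a1 (bottom) in 1 section per time point (0 h 2, 24 h A, 36 h B and 48 h D), each spot coloured by log2 of UMIs per 10000 UMIs of the spot plus 1 on 1 shared scale, at its array row and column. Col4a1 is spread over the section at 24 h, where Col1a1 is nearly empty, and at 48 h Col1a1 lies in separate bands of neighbouring spots.

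The next question was whether collagen levels were higher where hepatocyte transcripts were low. Whether the bands themselves coincide with such spots was not tested. Spots were called hepatocyte-low when the mean of 6 hepatocyte transcripts (Alb, Ttr, Hp, Hnf4a, Apoa1, Cyp2e1) was under the 1st percentile of uninjured spots, ring 1 when they touched such a spot, and far when they were at least 3 steps away. The classes used no collagen. At 48 h, 94, 21, 159 and 55 spots were hepatocyte-low, while at 24 h there were 33 in section A and 7 in B, and at 36 h 8 and 7. Uninjured sections 2, 3 and 4 held 19, 42 and 18 such spots, since the 1st percentile of uninjured spots sets the class. No section at 24 h or 36 h exceeded that range, so before 48 h the class does not set injured sections apart from uninjured liver. Section B at 48 h, with 21 of 1490 spots, was also within that range of counts. A class was used in a section only with 20 spots or more, so hepatocyte-low spots were tested at 48 h in 4 sections, with section as a block (edgeR, 14375 genes). At 24 h they could be used in section A alone, so only the size of the difference is given there.

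At 48 h, Col1a1 was at 91.6, 147, 213 and 259 CPM in far spots of sections A to D, at 186, 233, 475 and 570 CPM in ring 1 and at 363, 561, 1015 and 1118 CPM in hepatocyte-low spots. In each of the 4 sections the order was far, ring 1, hepatocyte-low. Col4a1 had the same order over a narrower range, with 114, 114, 147 and 161 CPM in far spots and 271, 274, 398 and 330 CPM in hepatocyte-low spots. All 10 members were higher in hepatocyte-low than in far spots at 48 h, against 32.5% of all genes, with log2 differences from 1.11 ± 0.06 for Col4a2 and 1.24 ± 0.06 for Col4a1 to 1.97 ± 0.05 for Col1a2 and 2.07 ± 0.06 for Col1a1. All 10 were also higher in ring 1 at 48 h, by 0.54 to 1.01, against 20.8% of all genes. The type IV pair thus had the smallest differences of the 10 in both classes, which was not tested as a difference between genes. Spots 2 steps away held Col1a1 at 81.7 to 248 CPM (unscaled) at 48 h, against 83.6 to 235 in far spots. Of the Col1a1 UMIs at 48 h, 7506 lay in 329 hepatocyte-low spots and 12922 in 1350 ring 1 spots. Another 8002 lay in 1910 spots 2 steps away and 22856 in 6405 far spots.

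Marker transcripts of most other cell types were also higher in hepatocyte-low spots at 48 h. All 6 mesenchymal, all 5 tested portal fibroblast, all 4 smooth muscle, all 4 mononuclear phagocyte, all 4 neutrophil and all 3 cycling markers were higher there than in far spots, as were 5 of 7 endothelial markers and none of 4 mesothelial markers. The 6 hepatocyte markers were lower, as the class requires. Their part in the collagen differences was not tested.

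Earlier in the course the differences rested on few spots, at times when counts of hepatocyte-low spots lay within or below those of uninjured sections. At 24 h in section A, Col4a1 was at 140 CPM in far spots, 173 in ring 1 and 251 in hepatocyte-low spots, a log2 difference of 0.84 between the outer classes. Col3a1 was higher there as well, by 0.95 (0.04 to 1.31 over 10 alternatives). These were 2 of 10 members, against 1.54% of all genes. In ring 1 at 24 h none of 10 was called, against 0.696% (edgeR), with log2 differences from -0.22 for Col3a1 to 0.56 for Col5a1 of which 4 had an unadjusted p under 0.05, and 3 or 4 members were called under 3 alternatives. In ring 1 at 36 h, 7 of 10 were higher (all but Col5a2, Col6a1 and Col6a2), against 0.988% of all genes, by 0.48 ± 0.13 for Col4a2 to 0.95 ± 0.20 for Col5a1, and 2 without 36 h B.

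The change of these patterns with time was compared as such. The hepatocyte-low difference of Col1a2 was larger at 48 h than in section A at 24 h by 1.39 on the log2 scale (0.85 to 1.47 over 10 alternatives). No call or p-value is given for that contrast, since 24 h rests on 1 section. The ring 1 difference was larger at 48 h for Col3a1 by 0.99 ± 0.18 (adjusted p = 9.94e-05, edgeR), 1 of 10 against 1.27%, and no member was called in that contrast without 24 h A. For Col4a1 the corresponding differences were 0.40 and 0.25 ± 0.11, and the latter was not called. In uninjured sections these classes were not tested. There Col1a1 had 3 UMIs in the 79 hepatocyte-low spots, while Col4a1 was at 25.1 to 33.0 CPM (unscaled) in far and at 29.0 to 50.3 in hepatocyte-low spots, and the latter were higher in 3 of 3 sections.

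**Figure D5:**
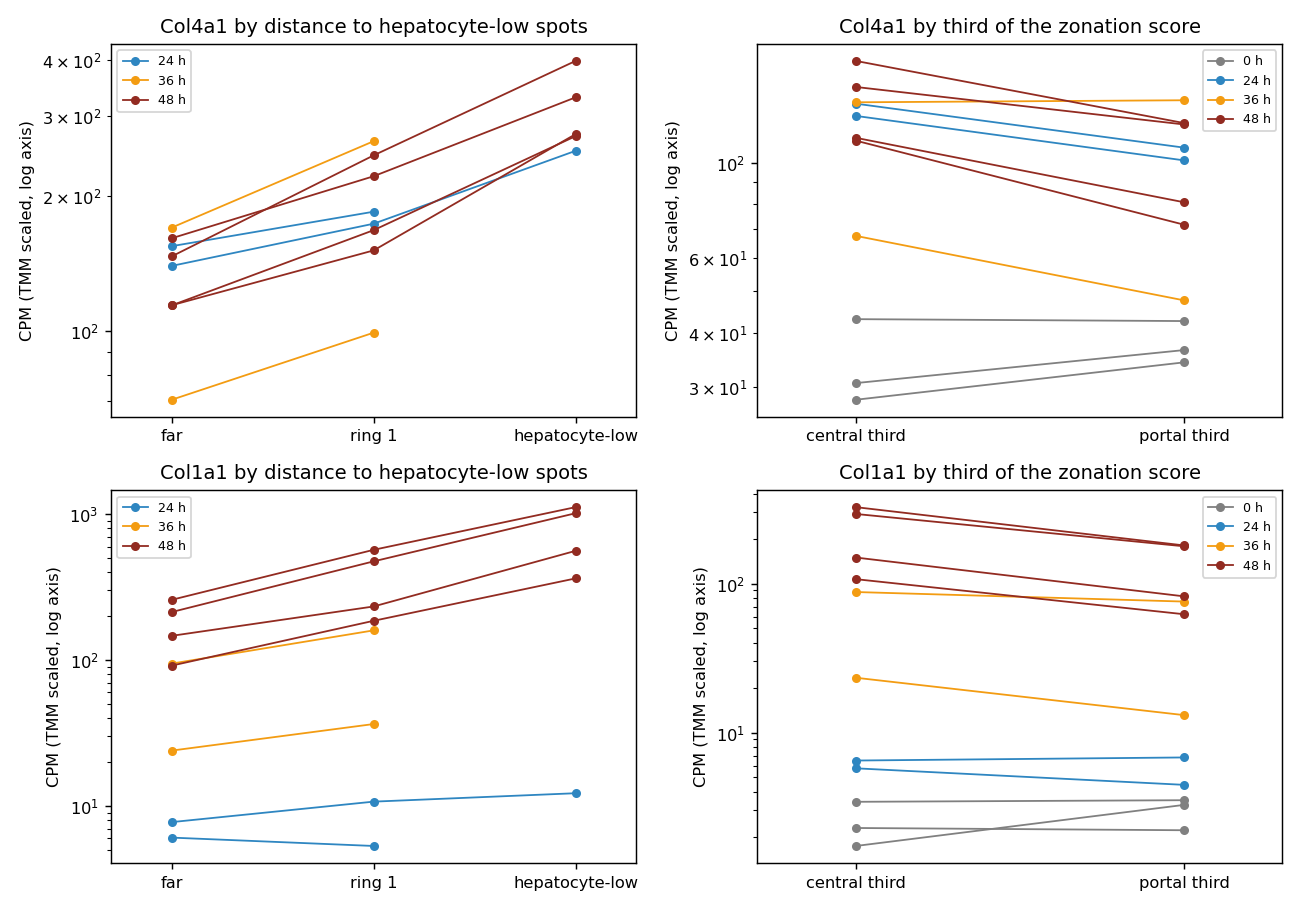
Level in CPM after TMM scaling (log axis) of Col4a1 (top) and Col1a1 (bottom), left in far, ring 1 and hepatocyte-low spots of the injured sections and right in the central and portal group of a zonation score in all sections; each line is 1 section, coloured by time. At 48 h all 4 sections rise towards hepatocyte-low spots (Col1a1 from 91.6 to 259 up to 363 to 1118) and fall towards the portal group, whereas the 0 h lines do not share a direction.

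The last comparison placed the members along the lobule. Each spot that was not hepatocyte-low was scored by 23 central and 12 portal hepatocyte genes, and spots were ranked within their section and divided into 3 equal groups, of which the portal and the central group were compared (edgeR, 13851 genes, section as a block). Since the ranks are relative, the groups differ in gene levels between time points, and 19, 17 and 18 of the 23 central genes were themselves lower at 24 h, 36 h and 48 h than at 0 h. At 0 h, Col5a2 was higher in the portal group by 0.88 ± 0.19 (adjusted p = 0.00118), 1 of 10 members against 8.8% of all genes, and none was lower, against 8.14% (edgeR, with no member lower at an unadjusted p under 0.05). At 48 h all 10 were lower in the portal group, against 20.6% of all genes, by 0.47 to 0.80 on the log2 scale. Col1a1 was at 62.2, 82.0, 180 and 178 CPM in the portal group of sections A to D and at 107, 149, 325 and 293 CPM in the central group, with the same order in 4 of 4 sections. Col4a1 was at 80.8, 71.6, 124 and 123 CPM against 114, 112, 173 and 150 CPM.

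Several members, the type IV pair among them, showed this direction at 24 h already. At 24 h, Col4a1 (-0.34 ± 0.10), Col4a2 (-0.46 ± 0.09) and Col1a2 (-0.44 ± 0.14) were lower in the portal group, 3 of 10 members against 9.86% of all genes, and leaving out either 24 h section left 1. At 36 h, Col1a1 (-0.37 ± 0.10), Col1a2 (-0.36 ± 0.08), Col3a1 (-0.32 ± 0.07) and Col6a3 (-0.59 ± 0.10) were lower, 4 of 10 against 1.67%, with none called without 36 h A and 7 without 36 h B. The portal difference at 48 h was lower than that at 0 h for all 10 members, against 11% of all genes, from -0.43 ± 0.15 for Col6a1 to -1.02 ± 0.23 for Col1a1 and -1.51 ± 0.20 for Col5a2, which at 0 h had stood on the portal side. That contrast between 48 h and 0 h was not planned and was added after the data had been seen. In the portal group at 48 h, 4 of 4 mononuclear phagocyte, 3 of 6 mesenchymal, 3 of 4 neutrophil and 3 of 3 cycling markers were lower as well, and their part was not tested.

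Genes with the course most like that of Col1a1 and Col4a1 were sought among 9117 genes with a mean of at least 5 CPM, by Pearson r of log2 CPM over the 11 sections and leaving out collagens. For Col1a1 these were Ltbp2 (0.99), Hk3 (0.99), Postn (0.98), Cd84 (0.98) and Gltp (0.98), of which none was called at 24 h and all 5 at 36 h. For Col4a1 they included Lrrc25 (0.99), Gnb1 (0.98), Itpripl2 (0.98) and Tagln (0.98), and these 4 were called at 24 h. These coefficients are a ranking over sections that share the time course and carry no test.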

How the data were processed

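The deposited files hold UMI counts per gene and spot, which the authors made with Space Ranger (1.0.0, mm10); the submitters' processing notes also name Seurat (4.1.1). Of the spots on tissue, those below 800 genes or above 20% mitochondrial UMIs were dropped (0 to 103 per section), and the remaining counts were summed per section. Section sums, and sums per spot class or lobule group with section as a block, were fitted over the whole gene table with edgeR 4.0.16 (R 4.3.3, TMM scaling, filterByExpr, robust quasi-likelihood, Benjamini-Hochberg, two-sided). DESeq2 1.42.0, other scalings, filters, thresholds and each section left out were the alternatives. Python 3.11.15, numpy 2.4.6, pandas 2.3.3 and scipy 1.17.1 did the rest. The scripts were tested on simulated data. Ratios used UMI counts with nothing added, and 0.5 added to each count was an alternative.

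The 10 members and the gene lists were chosen with earlier results of these data known. Named besides the members were, per list, up to 4 genes with the largest change at 48 h among those called, or, where fewer than 2 were called, up to 2 with the highest mean level. Other genes named in the text were chosen after their values were seen. Depth was 31292663 to 67045372 UMIs per section, and shares of spots cover counting error only. Some genes that this rule names are not reported here.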

Additional observations from a re-analysis of the deposited data

Results flagged for a closer look

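Several contrasts between time points differed by a test of the difference itself (edgeR). The hepatocyte-low difference of Col1a2 was 1.39 larger at 48 h than at 24 h on the log2 scale. There 24 h rests on section A alone, so the test cannot measure the spread between sections at that time. The ring 1 difference of Col3a1 was 0.99 larger at 48 h than at 24 h. The portal difference at 48 h minus that at 0 h was below 0 for every member, at -0.72 for Col3a1, -1.51 for Col5a2, -0.67 for Col6a3, -0.68 for Col5a1, -0.74 for Col1a2, -0.81 for Col6a2, -0.43 for Col6a1, -0.65 for Col4a1, -0.71 for Col4a2 and -1.02 for Col1a1. This portal contrast was added after the data had been seen.

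Spots outside the tissue mask, which no comparison used, also held collagen UMIs. The 10 members together were at 61.7 to 89.1 CPM (unscaled) there in the uninjured sections. The 24 h sections gave 227 and 217 CPM, those at 36 h 199.7 and 498 CPM, and A to D at 48 h 691, 914, 1241 and 1571 CPM. Per spot, members were 2.04 to 12.4 times as frequent on tissue as off it, against 1.62 to 8.62 times for all UMIs.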

How the results depend on the processing

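Counts of members called under an alternative are given here without the share of all genes called in it. At 48 h against 0 h all 10 members kept their call in all 16 alternatives. From 24 h to 36 h the 6 calls became 2 with no low-count filter, 0 with only the groups compared, 0 with a replicate block and 2 in the 8 injured sections without it, and 0 to 8 with a section left out. From 36 h to 48 h the 1 call became 2 with total-count scaling, 2 with all tissue spots, 0 with no filter, with only the groups compared and with or without the block, 8 with DESeq2, and 0 to 9 with a section left out. The section letters did not establish a pairing (same-letter r of deviations 0.27 for the 24 h and 36 h sections, and -0.12 and -0.11 for 24 h against 48 h). At 36 h against 0 h leaving out a section gave 3 to 10 calls. Ratios to Col4a1 ranged over 2.67 to 3.94 (Col1a1), 2.46 to 3.46 (Col3a1) and 2.28 to 3.41 (Col6a1) with a section left out, where fewer sections allow no p under 0.0571.

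In hepatocyte-low spots at 24 h, 5 members were called with the 5th percentile and 6 with thinning to 5000 UMIs, where sections A and B both had enough spots. Leaving out 24 h A could not be fitted. In ring 1 at 24 h these settings gave 4 and 3, and total-count scaling 3. Ring 1 at 36 h gave 2 to 7 with a section left out. The larger hepatocyte-low difference at 48 h was called for 9 members with the 5th percentile and 7 with thinning to 5000 UMIs. That of ring 1 was called for 0 to 2 with a section left out. The portal group at 0 h gave 1 to 2 higher with a section left out. At 24 h it gave 1 lower with the outer 10% groups of the score, 5 with total-count scaling and 1 to 3 with a section left out, and at 36 h 1 with those groups and 0 to 7.

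Signs turned for values near 0. Col1a2 at 24 h was 0.25 with total-count scaling and -0.41 to 0.17 with a section left out, and Col6a1 at 36 h was -0.27 to 1.83. Col4a1 from 24 h to 48 h was 0.20 with total-count scaling, 0.035 with no filter, 0.0053 with only the groups compared, 0.0020 in the injured sections with no replicate block, 0.013 with DESeq2, and -0.14 to 0.095 with a section left out. Col4a2 in that step was 0.080 and Col18a1 at 36 h 0.024 with total-count scaling. The cause was not tested.

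The mean share of spots with a Col1a1 UMI was 4.71%, 9.92%, 41.3% and 78.3% without thinning and 1.31%, 2.84%, 19.8% and 45.1% at 5000 UMIs at 0 h, 24 h, 36 h and 48 h. For Col4a1 it was 47.0%, 82.2%, 68.3% and 85.01%, and 14.4%, 43.7%, 36.2% and 44.9%. Total-count scaling moved the share of higher among calls from 55.4% to 80.4% at 24 h, 57.5% to 94.1% at 36 h and 52.7% to 93.7% at 48 h against 0 h. It moved it from 45.1% to 68.1% (24 h to 36 h), 53.1% to 74.2% (36 h to 48 h) and 47.7% to 74.0% (24 h to 48 h). In hepatocyte-low spots it moved from 26.1% to 76.0% at 24 h and 58.4% to 82.6% at 48 h, and in ring 1 from 24.2% to 84.4%, 21.7% to 77.8% and 53.9% to 85.7% at 24 h, 36 h and 48 h, with 37.6% to 49.9% and 45.5% to 59.0% for the differences between 48 h and 24 h. In the portal group it moved from 51.9% to 34.4%, 52.7% to 13.1%, 71.1% to 19.4% and 49.5% to 12.9% at the 4 times, and from 58.8% to 25.1% for 48 h minus 0 h.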
